A study of Mus musculus with 9 samples.

Results

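Connexins are the proteins of gap junctions, and pannexins are related membrane channel proteins. The 7 genes described here are 6 connexin genes, Gja1, Gja4, Gja5, Gjb2, Gjb5 and Gjc1, and the pannexin gene Panx1, taken by symbol from a table of 55487 mouse genes. They form a list drawn up with their levels in these libraries known, so their levels and differences are given as a description, with no p-value. The list has no threshold, and some other genes of the family are described beside it.

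Poly-A RNA was sequenced from MCEC, an established line labelled as murine cardiac endothelial cells. The 9 libraries formed 3 groups of 3: wild-type cells (WT), a Zbtb46 knockdown (KD) and a Zbtb46 overexpression (OE), Zbtb46 being a gene for a transcription factor with a BTB domain and zinc fingers. How the knockdown and the overexpression were made is not given in the sources used here, no library from cells with a control vector was analysed, and the labels do not say whether the libraries of a group came from separate cultures. P-values therefore measure the spread between these libraries, which may be technical.

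Connexins assemble in a ring to form a hemichannel, which docks with a hemichannel of the next cell and lets ions and small molecules pass between the cells. Connexins are grouped by sequence into alpha (Gja), beta (Gjb), gamma (Gjc) and further classes, and different connexins can mix within a hemichannel, so that the set a cell makes decides which partners it can couple to. In vessels, Gja4 (Cx37), Gja5 (Cx40) and Gja1 (Cx43) are the known endothelial connexins, and Gjc1 (Cx45) is known from smooth muscle and the conduction tissue of the heart. Gjb2 (Cx26) and Gjb5 are best known from epithelia such as skin. Panx1 forms single-membrane channels that release ATP, a signal read by purinergic receptors.

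The upstream sequences of the 3 members whose groups stood apart in a single order, KD above WT above OE (Gja1, Panx1) or the reverse (Gjb5), are shown first. RefSeq promoter sequences (GRCm38.p6) matched 6 of the 7 members by symbol. Each line holds the 250 bases before the annotated start, 5′ to 3′ on the strand of the gene. Capitals mark matches, on either strand, to TGACGT (the core of the cAMP response element), TGANTCA (the AP-1 site), GGGCGG (the GC box), CCAAT or TATAAA, and none of the matches shown overlap. Gja1 lies at chr10:56377050-56377299 on the plus strand, Panx1 at chr9:15045479-15045728 on the minus strand and Gjb5 at chr4:127358165-127358414 on the minus strand.
Gja1: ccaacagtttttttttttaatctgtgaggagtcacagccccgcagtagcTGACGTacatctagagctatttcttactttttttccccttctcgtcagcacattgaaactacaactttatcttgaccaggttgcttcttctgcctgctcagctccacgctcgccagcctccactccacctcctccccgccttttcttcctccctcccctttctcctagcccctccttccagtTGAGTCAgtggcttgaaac
Panx1: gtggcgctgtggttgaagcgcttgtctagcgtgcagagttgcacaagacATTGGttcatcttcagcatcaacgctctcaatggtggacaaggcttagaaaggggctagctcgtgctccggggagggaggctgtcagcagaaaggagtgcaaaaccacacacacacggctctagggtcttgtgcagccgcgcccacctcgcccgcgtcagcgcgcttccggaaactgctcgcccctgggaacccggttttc
Gjb5: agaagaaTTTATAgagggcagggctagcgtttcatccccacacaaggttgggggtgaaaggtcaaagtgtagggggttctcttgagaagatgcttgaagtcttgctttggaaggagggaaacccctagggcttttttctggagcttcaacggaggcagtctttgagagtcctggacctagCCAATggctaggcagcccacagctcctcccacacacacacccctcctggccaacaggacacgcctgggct
The Gja1 sequence holds TGACGT at -201 and TGAGTCA at -19, counted from the start. Of 32817 mouse promoter sequences of the same length, 6.46% hold TGACGT and 6.75% TGANTCA on either strand. Panx1 holds ATTGG, the reverse complement of CCAAT, at -201, and Gjb5 holds TTTATA, the reverse complement of TATAAA, at -243 and CCAAT at -70. CCAAT is found in 33.8% and TATAAA in 12.4% of the promoter sequences. A match describes the letters only. No match was found for GGGCGG in these 3 sequences, while 32.7% of all promoter sequences hold it. The sequences of the other matched members, not shown, do hold it: Gja4 at -79, Gja5 at -17 and Gjb2 at -211. Gjb2 also holds its reverse complement at -126.

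Some facts of the whole series bear on what follows. Total counts ran from 39491828 to 55745849 per library, and ribosomal RNA features took 7.32% to 18.03% of them. Zbtb46 stood at 13.7 ± 0.623 CPM (the read count scaled to a common library total; SD, n = 3) for WT, 11.2 ± 0.537 for KD and 191 ± 2.67 for OE, so all KD libraries lay below WT, by a small margin (log2 fold change -0.28, SE 0.055, adjusted p 0.00144 in edgeR). The endothelial label was only partly borne out by markers: of 14 endothelial markers 6 passed the filter on low counts, Erg had 0 counts in every library, and Pecam1, Cdh5, Tie1, Vwf, Fli1, Emcn, Cldn5 and Robo4 stayed below 1 CPM in every library. Flt1 was the best expressed, at 17.2 ± 0.196 CPM for WT, 12.1 ± 0.979 for KD and 21.9 ± 1.58 for OE. It alone of the tested markers was higher in OE than in WT. Egfl7 stood at 5.18, 2.99 and 2.49 CPM for WT, KD and OE, Kdr at 2.64, 1.4 and 1.77 and Tek at 1.84, 1.41 and 0.459. Fli1 went from 0.376 CPM in WT to 0 in OE, and Esam from 0.612 to 0.47 (adjusted p 0.523 in edgeR). With Flt1 as the largest part, the 14 markers summed to 28 to 28.4 CPM for WT, 18.5 to 20.1 for KD and 25.1 to 29.5 for OE. Of 4 lymphatic endothelial markers, Prox1 and Lyve1 were below 1 CPM in every library, while Pdpn stood at 88.2 ± 2.5 CPM in WT and Flt4 at 116 ± 5.41, both above Flt1. Flt4 fell to 75.4 ± 0.389 CPM in OE (log2 fold change -0.62, SE 0.039, adjusted p 1.06e-09 in edgeR), and the 4 markers summed to 202 to 208 CPM in WT, 202 to 210 in KD, with 159 to 163 in OE. The 8 cardiomyocyte markers summed to at most 1.62 CPM and the 7 leukocyte markers to at most 7.86 CPM in any library. Of 10 mural and fibroblast markers 6 were tested, and Cspg4, Rgs5, Tagln, Lum and Postn stayed below 1 CPM in every library. The 10 summed, nearly all of it Col1a1, to 5120 to 5690 CPM for WT, 4850 to 4920 for KD and 4040 to 4140 for OE. Acta2 stood at 7.73, 2.8 and 1.76 CPM for WT, KD and OE, and Dcn at 98, 97.8 and 36.7. Among 7 epithelial markers Krt5 was at 0 counts, and Epcam, Cdh1, Krt18 and Cldn4 stayed below 1 CPM in every library. Krt8 was low, at 2.36 CPM for WT, 1.96 for KD and 1.11 for OE. Krt14 alone was high, at 538 ± 38.4 CPM for WT, 589 ± 10.6 for KD and 431 ± 4.01 for OE. The part of these marker levels in the results below was not tested, and in bulk RNA fewer cells of a type cannot be told apart from less RNA per cell.

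Of the 7 members 5 passed the low count filter: Gja1, Gja4, Gjb5, Gjc1 and Panx1. Gja1 (ENSMUSG00000050953, chromosome 10, 56377330 to 56402513 on the plus strand of GRCm38) encodes connexin Cx43, the most widespread connexin, which also carries most coupling between ventricular muscle cells. Its level was 154, 168 and 150 CPM in the WT libraries, 184, 185 and 185 CPM in KD and 79.1, 78.3 and 79.97 CPM in OE. The 3 groups did not overlap, KD being the highest and OE the lowest. The log2 fold change was 0.23 (SE 0.049) for KD over WT, -0.99 (SE 0.050) for OE over WT and -1.22 (SE 0.0090) for OE over KD. Behind these values stand 22512 counts for WT, 25639 for KD and 11188 for OE, so counting error is small: the ratio of KD to WT was 1.17 with a 95% exact counting interval of 1.14 to 1.19, and that of OE to WT 0.499 (0.488 to 0.511).

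Gjc1 (ENSMUSG00000034520, chromosome 11, 102799579 to 102819700, minus strand), the gene of Cx45, had its low group in KD and not in OE. It stood at 19.3, 20.4 and 19.8 CPM for WT, 9.32, 10.8 and 10.2 CPM for KD and 22.4, 20.6 and 19.0 CPM for OE. KD lay apart from both other groups, whereas WT and OE overlapped. The log2 fold change was -0.97 (SE 0.067) for KD over WT, 0.06 (SE 0.072) for OE over WT and 1.03 (SE 0.092) for OE over KD. WT had 1.98 times the KD level, with a counting interval of 1.85 to 2.11 from 2828 and 1398 counts. The small OE value turned to -0.0019 when libraries were scaled by their totals alone.

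Gjb5 (ENSMUSG00000042357, chromosome 4, 127354809 to 127358181, minus strand) encodes Cx31.1, a connexin of skin and placenta. Its level was 9.81, 8.29 and 10.1 CPM for WT, 7.73, 7.89 and 7.05 CPM for KD and 10.98, 13.5 and 11.96 CPM for OE. The order was the reverse of that of Gja1, with KD lowest and OE highest and no overlap between groups, though the lowest WT library lay close to the highest KD library. The log2 fold change was -0.31 (SE 0.10) for KD over WT, 0.37 (SE 0.12) for OE over WT and 0.68 (SE 0.098) for OE over KD. Over the 282 tested genes of its 20 Mb window of chromosome 4, the median log2 fold change lay on the same side of 0. That median was -0.18 for KD over WT and 0.35 for OE over WT. With window medians removed, Gjb5 stood at -0.13 for KD over WT, 0.03 for OE over WT and 0.19 for OE over KD.

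Panx1 (ENSMUSG00000031934, chromosome 9, 15002128 to 15045478, minus strand) took the same order as Gja1. Its values were 8.33, 8.52 and 7.94 CPM for WT, 9.18, 10.1 and 10.4 CPM for KD and 6.63, 6.26 and 6.49 CPM for OE. No group overlapped another. The log2 fold change was 0.26 (SE 0.062) for KD over WT, -0.36 (SE 0.038) for OE over WT and -0.61 (SE 0.060) for OE over KD. Its window of chromosome 9, with 66 tested genes, had medians of 0.16 for KD over WT and -0.18 for OE over WT, and without these medians Panx1 stood at 0.09 and -0.17, and at -0.25 for OE over KD. For Gja1 and Gjc1, by contrast, the window medians were between -0.08 and 0.03 in both comparisons with WT.

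The endothelial pair Gja4 and Gja5 and the epithelial gene Gjb2 were at or near 0. Gja4 (ENSMUSG00000050234, chromosome 4, 127311421 to 127314039, minus strand), the gene of Cx37 in arterial endothelium, had 12, 14 and 17 counts for WT, 13, 3 and 21 for KD and 18, 15 and 22 for OE. That is 0.31 ± 0.073 CPM (SD, n = 3) for WT, 0.25 ± 0.18 for KD and 0.39 ± 0.093 for OE, with all groups overlapping. At this depth a difference was not detectable: the counting interval of the ratio was 0.551 to 1.40 for KD to WT and 0.847 to 1.96 for OE to WT. The fitted KD value of -0.24 became 0.16 without KD replicate 2, the library with 3 counts. Gja5 (ENSMUSG00000057123, chromosome 3), the gene of Cx40 in arteries and atria, had 8 counts in all, 3 in KD replicate 1, 2 in OE replicate 1 and 3 in OE replicate 2. It overlaps genes on the opposite strand, and the strand setting of the counting is not given in the sources used here. Gjb2 (ENSMUSG00000046352, chromosome 14), the gene of Cx26 in the inner ear and other epithelia, had 0 counts in every library, which allows up to 3 counts, or 0.050 to 0.079 CPM, per library. No fold is given for Gja5 or Gjb2, since all groups were at or under that floor.

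**Figure D1:**
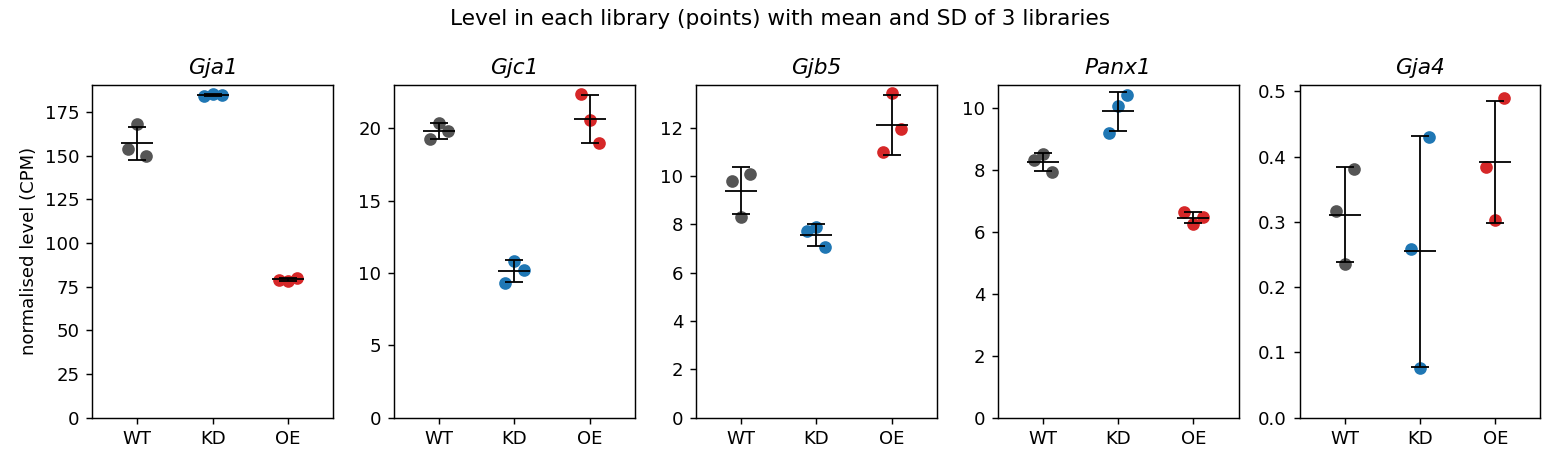
Normalised level in CPM (linear axes from 0) of the 5 members that passed the filter, with 1 point per library and bars for the mean and SD of 3 libraries of WT, KD and OE. Gja1 and Panx1 are highest in KD and lowest in OE, Gjb5 the reverse, Gjc1 is low in KD, and the Gja4 groups overlap.

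Counts of members past a threshold are read against all 16955 genes tested. For KD over WT 3 of the 5 members tested had an adjusted p under 0.05 in edgeR's quasi-likelihood test (Gja1 higher, Gjc1 and Gjb5 lower), where 21.3% of all genes did. For OE over WT 3 of 5 did (Gjb5 higher, Gja1 and Panx1 lower), where 36.4% of all genes did, and for OE over KD 4 of 5 did, all but Gja4, where 41.5% of all genes did. The groups did not overlap for 4, 3 and 4 of the 5 members in these comparisons, against 34.7%, 45.1% and 55.4% of all genes. Because the members were listed with these values known, nothing is read from the counts. KD against WT and OE against WT share the WT libraries.

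Not all of these calls held. Gjb5 in KD was no longer past the threshold in 11 of 18 alternative fits, among them every fit that left out a library other than WT replicate 2, and in OE it was lost without OE replicate 2. Gja1 in KD was lost with library totals alone (log2 fold change 0.19). That scaling also moved the part of all calls that were higher, from 51.4% to 35.8% for KD over WT and from 46.6% to 31.6% for OE over WT.

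Levels of different genes were compared per kilobase of exon (CPM per kb). With the summed length of all annotated exons, WT gave 15.3 CPM per kb for Gja1, 5.46 for Gjb5, 3.96 for Gjc1, 1.37 for Panx1 and 0.18 for Gja4, and no neighbours in this order overlapped between libraries. In OE the Gja1 libraries, at 7.64 to 7.80 CPM per kb, overlapped the Gjb5 libraries at 6.38 to 7.81. The summed exon length of Gja1, 10257 bases, covers several long transcripts, while its principal transcript has 3182. With the principal transcript as the length, Gja1 stood at 49.4 ± 2.97 CPM per kb (SD, n = 3) for WT, 58.0 ± 0.187 for KD and 24.9 ± 0.256 for OE, first in every group and without overlap. Gjc1, at 8.56 ± 0.242 CPM per kb in WT, then came before Gjb5, at 5.46 ± 0.564, and the pair overlapped in KD, with 4.03 to 4.68 for Gjc1 and 4.10 to 4.58 for Gjb5. Which of Gjb5 and Gjc1 is the more abundant mRNA thus depends on the transcript length assumed, which these counts do not give.

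Of other genes of the family, 2 that passed the filter are given here, Panx3 and Gjc3. Panx3, a pannexin of cartilage and bone, had 16, 22 and 20 counts for WT, 31, 36 and 49 for KD and 8, 0 and 1 for OE. The OE libraries were the lowest and the KD libraries the highest, with no overlap, the order of Panx1 at a far lower level. It fell in OE (log2 fold change -2.64, SE 0.70, adjusted p 0.00338 in edgeR), with -2.05 without OE replicate 2 and -4.96 without OE replicate 1, the library with 8 counts. By summed counts WT had 6.41 times the OE level, with a counting interval of 3.16 to 14.7. In KD its log2 value was 1.03 (SE 0.22, adjusted p 0.15 in edgeR). Gjc3 (Cx29), a connexin of myelinating glia, stayed below 1 CPM and did not pass in either comparison, with log2 values of -0.62 (SE 0.31) in KD and -0.60 (SE 0.52) in OE.

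**Figure D2:**
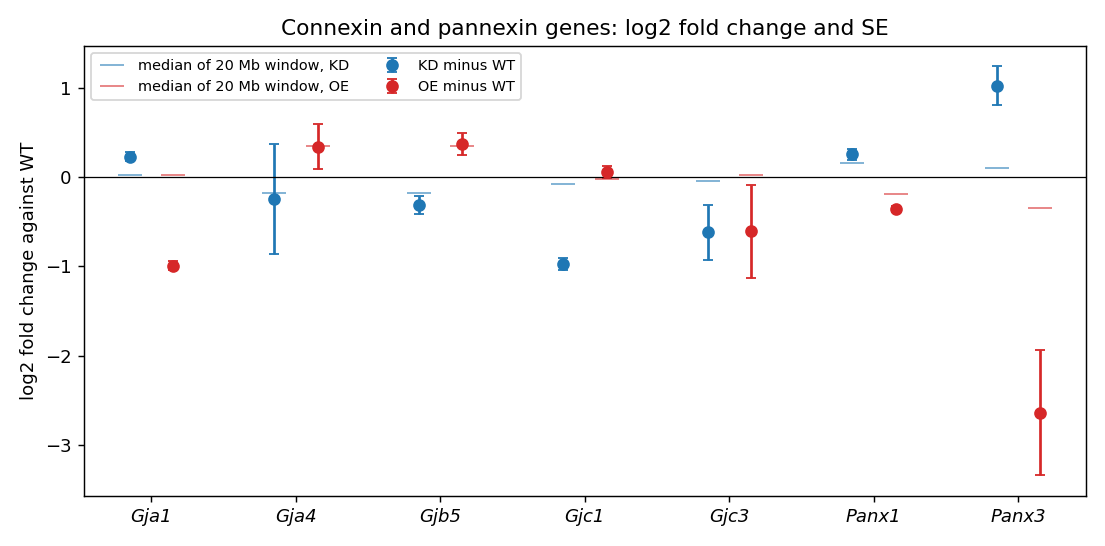
Log2 fold change against WT of the 5 members tested and of Gjc3 and Panx3, in KD (blue) and OE (red), with bars for the SE and short lines for the median of the tested genes in the same 20 Mb window. Gja1 in OE and Gjc1 in KD lie near -1, away from their window medians, and the OE value of Gjb5 lies near its window median.

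Of the proteins that hold, anchor, modify or remove connexins, 19 of 20 listed genes were tested, and Cdh5, the endothelial cadherin, was not. In KD 7 passed the threshold in edgeR, 3 of them higher and 4 lower (36.8%, against 21.3% of all genes), with a list median of 0.01. Without KD replicate 1 the number was 4, and with library totals alone it was also 4. Cav1, the coat protein of caveolae, went up from 95.6 ± 3.71 CPM (SD, n = 3) to 134 ± 2.98 in KD (log2 fold change 0.48, SE 0.038, adjusted p 2.58e-07 in edgeR). Nedd4, a ubiquitin ligase that binds Cx43 and promotes its removal from the membrane, rose by 0.18 and Ctnnb1, beta-catenin, by 0.13, where their window medians were 0.11 and 0.16. The Nedd4 call was lost without WT replicate 3 and with library totals alone. Ocln, the tight junction protein occludin, fell from 0.98 ± 0.19 to 0.46 ± 0.16 CPM (log2 fold change -1.10, SE 0.34, adjusted p 0.0158 in edgeR), a call lost without KD replicate 1. Src, a kinase that phosphorylates Cx43, fell by 0.40, Mapk3 by 0.19 and Dbn1, drebrin, by 0.13. Tjp1, the scaffold ZO-1 that binds the tail of Cx43, did not pass, with 0.12 (SE 0.068) in KD and 0.09 (SE 0.069) in OE.

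In OE 2 of these partner genes were higher and 6 lower (42.1%, against 36.4% of all genes), with a list median of -0.07. Nedd4 fell from 1352 ± 112.5 to 895.7 ± 18.1 CPM (SD, n = 3; log2 fold change -0.59, SE 0.071, adjusted p 2.84e-09 in edgeR) where its part of chromosome 9 had a window median of -0.34. Cav1 fell to 67.4 ± 3.47 CPM (log2 fold change -0.50, SE 0.053, adjusted p 4.04e-08 in edgeR). Like Gja1, Cav1 was thus highest in KD and lowest in OE, and Nedd4 and Ctnnb1 took the same order, with no overlap between groups. Ctnnb1 fell by 0.46, its window median being -0.49, and Mapk3, Dbn1 and Hgs fell by 0.36, 0.32 and 0.23. Cnst, consortin, a receptor that helps connexins to the cell surface, rose by 0.28.

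Among 26 transcription and signalling genes tied to connexin expression in vessels or heart, 18 were tested. Dll4, Sox17, Sox18, Foxc2, Tbx3, Tbx5, Nkx2-5 and Irx3 did not pass the filter on low counts. In KD 2 were higher and 2 lower (22.2%, against 21.3% of all genes), with a list median of -0.02. Hey2, an effector of Notch signalling, went up from 1.87 ± 0.241 to 3.48 ± 0.282 CPM (SD, n = 3; log2 fold change 0.90, SE 0.12, adjusted p 0.000695 in edgeR). Klf4, a factor induced by flow, went up from 41.2 ± 2.36 to 64.8 ± 2.52 CPM (log2 fold change 0.65, SE 0.058, adjusted p 2.64e-08 in edgeR). Jun, a subunit of AP-1, fell by 0.52 (adjusted p 1.06e-05 in edgeR), where its window median was -0.135. Rbpj, the DNA-binding partner of Notch, fell by 0.38.

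In OE 6 regulator genes were higher and 3 lower (50%, against 36.4% of all genes), with a list median of -0.03. The number past the threshold was 5 in place of 9 without WT replicate 1 or without OE replicate 1, and 4 with library totals alone. Foxc1, a forkhead factor of vessel and heart development, fell from 65.6 ± 1.21 to 17.1 ± 0.828 CPM (SD, n = 3; log2 fold change -1.94, SE 0.043, adjusted p 8.33e-16 in edgeR). Notch1, a receptor of arterial fate, fell from 19.4 ± 3.14 to 7.60 ± 1.25 CPM (log2 fold change -1.36, SE 0.20, adjusted p 4.41e-07 in edgeR). Jag1, a Notch ligand, rose by 0.54, while Efnb2, an arterial ephrin, fell by 0.22. Tbx2, a cardiac repressor of connexin genes, was at a low level, 0.54 ± 0.22 CPM in WT and 1.03 ± 0.21 in OE. Its log2 fold change of 0.91 (SE 0.37, adjusted p 0.0481 in edgeR) lay just past the threshold. Klf4, higher in KD, was also higher in OE, by 0.18 (adjusted p 0.014 in edgeR), a call unchanged in 15 of 18 alternative fits. Rbpj, which fell in KD, rose by 0.20 in OE (adjusted p 0.0159 in edgeR). Jun, which fell in KD, had a log2 value of -0.03 (SE 0.088, adjusted p 0.737 in edgeR) in OE, where its window median was 0.27.

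For Panx1 the receptors and enzymes of released ATP and adenosine, and enzymes that act on the channel, were listed. Of 13 such genes 9 were tested, and P2ry1, P2ry6, Entpd1 and Entpd2 were not. In KD 3 passed the threshold, each of them lower (33.3%, against 21.3% of all genes), with a list median of -0.08. P2rx7, the ATP receptor that works together with Panx1, fell from 19.9 ± 0.472 to 15.3 ± 1.64 CPM (SD, n = 3; log2 fold change -0.38, SE 0.089, adjusted p 0.00117 in edgeR). The other two were adenosine receptors of low level, Adora1 and Adora2a, at 0.31 and 0.28 CPM in WT and 0.0068 and 0.043 CPM in KD, named because the count is small. With at least 10 counts in every library, or with only WT and KD in the fit, the number in KD was 1.

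In OE 2 purinergic genes passed, both lower (22.2%, against 36.4% of all genes), with a list median of 0.04. Nt5e, the enzyme CD73 that makes adenosine outside the cell, fell from 14.7 ± 1.98 to 6.96 ± 0.849 CPM (SD, n = 3; log2 fold change -1.08, SE 0.15, adjusted p 8.73e-08 in edgeR). Without OE replicate 1 or OE replicate 2 the number was 1. P2rx7 had a log2 value of 0.04 (SE 0.025, adjusted p 0.709 in edgeR) in OE, and P2rx4 did not pass in either comparison. Genes of these lists outside the rule for named genes were named after their values were seen, to fill small counts.

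**Figure D3:**
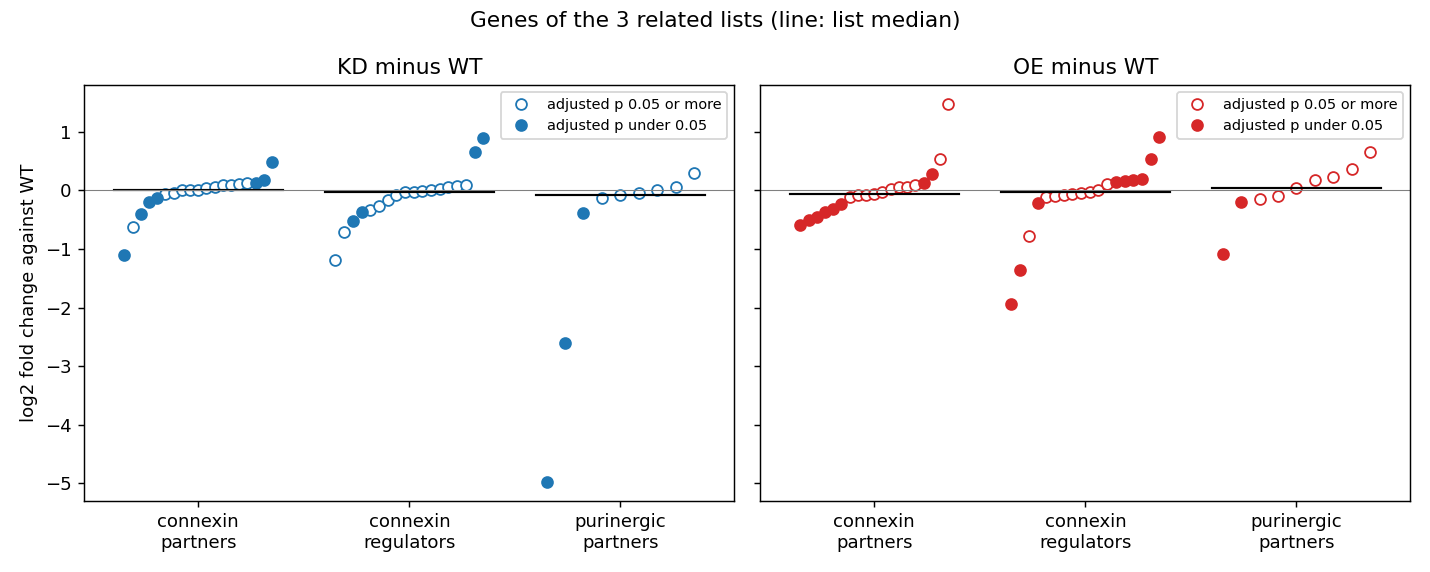
Log2 fold change against WT of the tested genes in the lists of connexin partners, connexin regulators and purinergic partners, in KD (left) and OE (right), sorted within each list, with filled points for an adjusted p under 0.05 in edgeR and a line for the list median. Most points lie near 0, and the medians run from -0.08 to 0.04.

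Each member's log2 CPM over the 9 libraries was compared with that of genes with at least 1 CPM in a group. Genes with provisional symbols (Gm and digits, an ending in Rik, or capital letters and a run of digits) were left out. The gene most like each member was then found. It was Arhgef26 for Gja1 (Pearson r 0.9986), Pou6f1 for Gjc1 (0.99), Bnip2 for Panx1 (0.99), Wdr70 for Gjb5 (0.98) and Hmgb1-ps7 for Gja4 (0.94). These coefficients are the highest of about 11483 genes, and the 9 libraries fall into 3 groups and share depth and preparation, so they are a description without a p-value. Arhgef26 stood at 77.9 ± 6.15 CPM (SD, n = 3) for WT, 114 ± 3.63 for KD and 14.9 ± 1.29 for OE, the order of Gja1 with wider steps. Pou6f1, at 13 ± 0.742, 4.60 ± 0.126 and 13.1 ± 0.848 CPM, was low in KD alone of the 3 groups, as Gjc1 was. The levels of Bnip2 were 113 ± 4.99, 141 ± 5.55 and 80.4 ± 0.772 CPM, the order of Panx1, and those of Wdr70 were 33.5 ± 1.01, 31.4 ± 0.059 and 36.8 ± 1.07 CPM, the order of Gjb5.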

How the data were processed

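The authors deposited 1 table of raw read counts, with Ensembl genes in rows and libraries in columns; that these are counts was judged from the whole-number values. The submitters' processing notes name GRCm38 and mm10; the aligner, the counting program, the strand setting and the annotation release are not given in the sources used here. The table's 55774 rows held 168 genes on 455 rows with identical counts, and each gene was counted once. All 9 columns matched a sample by name. Positions and exon lengths came from GENCODE M21 (GRCm38).

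Counts were analysed with edgeR 4.0.16 (filterByExpr, TMM, robust quasi-likelihood fit over the 9 libraries, group as the only term), with limma 3.58.1 and DESeq2 1.42.0 for alternatives (R 4.3.3). Tables and plots used Python 3.11.15 (numpy 2.4.6, pandas 2.3.3, matplotlib 3.10.9). The Benjamini-Hochberg adjustment took in all 16955 tested genes, and 0.05 was the threshold. CPM are counts divided by the TMM-scaled library total. SEs were computed from library SDs on the log2 CPM scale, with a prior count of 2. Counting intervals are exact, at 95%, and cover counting error only, as does the floor of 3 counts per library. The procedure was tested on simulated counts.

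The members and gene lists were chosen with earlier results of these data known. Named genes were the members, Zbtb46, tested family genes, in each list and comparison with WT the 2 largest called changes at 1 CPM or more, and the gene most correlated with each member. Replicates differed by 2.97 to 10.5 times the median chi-square of sampling noise, so none was taken as a library deposited again. The spread was widest in WT, at 7.47 to 10.5 times, against 2.97 to 3.8 in KD and 3.01 to 5.33 in OE. Results on some other genes of the family and of the lists are not reported here.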

Additional observations from a re-analysis of the deposited data

How the results depend on the processing

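Of 297 values of the members' log2 fold changes under the alternatives, 289 moved by less than the spread between replicates, and 7 of the 8 that moved by more had window medians removed. For the members, the tested family genes and the genes named by rule, calls lost under an alternative are given where the gene is described. Calls gained concerned values not called in the results. Other genes named from the lists, such as Ctnnb1, Src and Jag1, were not followed singly. No called value that was followed changed sign. Counts over all genes stayed within 1.5 times: without a library they ran from 2537 to 4699 for KD over WT, 5228 to 6440 for OE over WT and 6072 to 7604 for OE over KD. Partner genes called in KD were 4 with library totals alone and 4 to 10 with a library left out. Regulator genes called in OE were 4 with library totals alone and 5 to 9 with a library left out. Purinergic genes called in KD were 1 with at least 10 counts in every library, 1 with only the groups compared and 2 to 4 with a library left out, and in OE they were 1 to 2 with a library left out. With at least 10 counts in every library, 0 other family genes were called in KD and 1 in OE, since that filter leaves 1 of the 5 tested genes. With CPM not divided by length, 3 members had another rank in WT: Gjb5 and Gjc1 changed places, and Gjb2 differed only through its tie with Gja5 at 0. In KD, Gjb5 went from rank 2 to rank 4, behind Gjc1 and Panx1. With the length of the principal transcript, an alternative chosen after seeing the data, 2 members changed places in WT, again Gjb5 and Gjc1. With the replicate number as a block, 3574 genes were called for KD over WT, 6111 for OE over WT and 6969 for OE over KD; libraries with the same number correlated by -0.04 to 0.05 in their deviations from group means, and 7 of 18 best matches were with the same number, so the numbers do not pair the libraries. Depth limits Gja4, Gja5, Gjb2, Gjc3 and Panx3, with few or no counts.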
